A study of Rattus norvegicus with 287 samples.

Results

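The genes described here are 9 genes that red cells and their precursors use, of 32623 genes counted in rat tissues: Alas2, Hba-a1, Slc4a1, Gypc, Xpo7, Bpgm, Tfrc, Epb42 and Ahsp. They were taken by symbol from the deposited gene counts, and all 9 were found. The study treated rats with peripheral focused ultrasound (pFUS), pulses at 1.1 MHz aimed for 3 minutes a session at the porta hepatis. This is the hilum through which vessels and nerves enter the liver. Control rats were anaesthetised alike and received a sham stimulus with no energy. Blood RNA was sequenced in 31 rats after 7 weeks, each library coming from a separately numbered rat: 5 obese ZDF (Zucker diabetic fatty) rats given pFUS, 5 obese ZDF control rats, 5 lean Zucker rats given pFUS, 5 lean Zucker control rats, 2 rats labelled DIO Diet Resistant given pFUS, 5 DIO-stz rats given pFUS and 4 DIO-stz control rats. The ZDF and lean rats were male. The DIO-stz pFUS group held 4 males and 1 female, the DIO-stz control group 2 males and 2 females, and both diet resistant rats were female. The labels give no age or genotype, and nothing on diet beyond the names DIO-stz and DIO Diet Resistant. Every rat, controls included, was anaesthetised with isoflurane. Liver, muscle, adipose, brain, intestine, kidney and pancreas of these rats show how far red cell RNA turned up outside blood. Liver, muscle and adipose also came from further obese ZDF rats, whose schedules are named here as labelled. For 3 days they were given sham, pFUS AM only x1 or pFUS AM only x10. For 4 weeks they were given pFUS AM and PM x1, AM only x10 or AM and PM x10, with no sham group.

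Circulating red cells have no nucleus and make no new RNA. The RNA they carry is left from the marrow, is richest in reticulocytes, the youngest red cells in the circulation, and is dominated by haemoglobin message. Alas2 makes the first intermediate of haem in erythroid cells, Hba-a1 encodes an alpha chain of haemoglobin, and Ahsp holds free alpha chains soluble until they meet beta chains. Slc4a1 is the anion exchanger of the red cell membrane, Epb42 ties it to the membrane skeleton, and Gypc, glycophorin C, is a second anchor of that skeleton. Bpgm makes the bisphosphoglycerate that lowers the oxygen affinity of haemoglobin. Tfrc, the transferrin receptor, brings iron into erythroblasts and is shed as reticulocytes mature. Xpo7 is a nuclear transport receptor that is abundant in late erythroblasts and, in mouse, is needed for normal nuclear condensation before the nucleus is expelled.

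The regions in front of the start sites of Hba-a1 and Alas2 are shown because Alas2 followed haemoglobin across libraries of the 7 tissues outside blood, and that of Gypc because Gypc, with Xpo7, differed most clearly between obese and lean blood. Promoter sequences were found for 6 of the 9 members in a RefSeq table of the GRCr8 assembly, which is not the assembly the counts were made on. The 250 bases before each start site were searched on both strands for a GATA site, written AGATAA or in its other form TGATAA, for the letters CCACCC of the erythroid Krüppel-like factor site, for the CCAAT box and for the TATA box, written TATAAA. Matches are in capitals, and none of these motifs overlaps another here. The regions are chr10:15842581-15842830, minus strand, for Hba-a1, chrX:22895200-22895449, plus strand, for Alas2 and chr18:24467593-24467842, minus strand, for Gypc.
Hba-a1: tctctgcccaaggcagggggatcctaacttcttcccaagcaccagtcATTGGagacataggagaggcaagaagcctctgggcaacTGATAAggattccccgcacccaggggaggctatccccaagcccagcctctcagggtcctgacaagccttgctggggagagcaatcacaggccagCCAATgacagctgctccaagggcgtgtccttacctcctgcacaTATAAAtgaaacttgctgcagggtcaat
Alas2: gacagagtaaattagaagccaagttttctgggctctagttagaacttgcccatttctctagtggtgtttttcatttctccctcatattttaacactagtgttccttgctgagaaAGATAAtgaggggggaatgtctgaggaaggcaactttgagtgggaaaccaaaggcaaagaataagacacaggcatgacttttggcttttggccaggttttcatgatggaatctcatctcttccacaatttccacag
Gypc: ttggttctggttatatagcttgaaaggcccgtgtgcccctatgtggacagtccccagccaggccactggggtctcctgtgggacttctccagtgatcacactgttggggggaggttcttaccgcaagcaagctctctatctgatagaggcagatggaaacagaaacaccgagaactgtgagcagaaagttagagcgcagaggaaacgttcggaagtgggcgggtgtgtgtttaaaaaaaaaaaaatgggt
Counting from the start site, Hba-a1 held TGATAA at -165, CCAAT at -71, its reverse complement at -203 and TATAAA at -28. Alas2 held AGATAA at -136 and no other match, and Gypc held none. Among 33469 rat promoters of the same length, 7.97% held TGATAA, 10.3% AGATAA, 34.0% CCAAT, 12.9% TATAAA and 26.1% CCACCC. Of the 6 member promoters, 1 held AGATAA, 1 its other form, 1 the TATA box, 3 the CCAAT box and 0 the letters CCACCC. A match describes letters only.

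The blood libraries held 14542715 to 36498514 counts each, of a range of 2380545 to 43088790 over all 287 libraries. Haemoglobin genes took 68.2% to 92.0% of the counts of a blood library, so 1322757 to 6443192 counts were left for all other genes. Levels are given here as CPM, counts scaled to the library total, whereas fold changes come from edgeR's quasi-likelihood test after TMM scaling, which sets the bulk of the genes level between libraries. The TMM factors ran from 0.411 to 2.07 in the ZDF and lean blood libraries. A gene can therefore have a higher CPM and a negative fold change in the same comparison. Without these factors, the median log2 fold change of all genes was 0.72 for pFUS against control in obese blood and 0.46 for obese against lean blood under pFUS, against -0.02 and -0.03 with them.

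Several blood libraries stood apart. Lean control 12 and lean pFUS 18 had the lowest median rank correlation with their own groups in the ZDF and lean blood, 0.894 and 0.859. Obese control 5 differed from obese controls 1 to 4 in Xpo7, Gypc and Ifit1, as given below. A further gene without a symbol in RefSeq, ENSRNOG00000030106, chosen after its values were seen, was at 0.21 to 0.74 CPM in brain, kidney, liver, muscle and pancreas of obese control 5 but at 7.86 CPM in its blood and 47.7 CPM in its intestine; this gene also differed between tissues in obese pFUS 8 (0.24 CPM in blood, 8.66 in brain) and obese pFUS 9 (4.74 CPM in blood, 0.25 in brain). Whether these libraries carry the right rat's number cannot be told from the files. Results on obese against lean blood are also given without obese control 5, lean control 12 and lean pFUS 18, an alternative chosen after the data were seen.

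After 7 weeks, 2 of the 9 members were higher in obese than in lean blood, in control rats and again in pFUS rats, which are different animals. Xpo7 (ENSRNOG00000013288) was at 135, 153, 138, 300.3 and 15.7 CPM in obese controls 1 to 5, against 10.4, 12.1, 10.1, 7.58 and 10.3 CPM in lean controls 11 to 15. Every obese control was above every lean control, obese control 5 by far the least. The log2 fold change was 3.79 ± 0.56 (SE; n = 5 and 5; edgeR adjusted p = 0.00377), or 13.8-fold. Under pFUS, Xpo7 was at 267, 266, 149, 201 and 216 CPM in obese rats 6 to 10, against 10.0, 12.2, 8.78, 19.7 and 11.1 CPM in lean rats 16 to 20. These groups were far apart, with a log2 fold change of 3.55 ± 0.55 (SE; n = 5 and 5; edgeR adjusted p = 0.00438).

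Gypc (ENSRNOG00000029939) followed the same libraries at a lower level. It was at 12.4, 14.7, 22.7, 25.0 and 4.16 CPM in obese controls 1 to 5, against 3.01, 1.93, 2.70, 1.75 and 3.73 CPM in lean controls 11 to 15. The ranges did not overlap, again with obese control 5 next to the lean rats (log2 fold change 2.79 ± 0.45, SE; n = 5 and 5; edgeR adjusted p = 0.00641). Under pFUS it was at 29.5, 26.8, 13.6, 22.8 and 35.6 CPM in obese rats 6 to 10, against 3.10, 4.10, 1.48, 5.12 and 3.76 CPM in lean rats 16 to 20. The log2 fold change was 2.42 ± 0.44 (SE; n = 5 and 5; edgeR adjusted p = 0.00910). Of 9400 genes tested, 2.78% passed between obese and lean controls and 2.93% between obese and lean pFUS rats, against 2 of the 9 members in each; 2.06% and 1.91% passed as higher in the obese rats. The 2 members also passed without obese control 5, lean control 12 and lean pFUS 18: Xpo7 then had a log2 fold change of 4.58 ± 0.29 and Gypc of 3.20 ± 0.36 in control rats (SE; n = 4 and 4; edgeR adjusted p = 4.81e-09 and 4.41e-05). Obese control 5 was set apart by the values of these same genes. The larger fold changes without it are therefore no check on the difference.

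**Figure D1:**
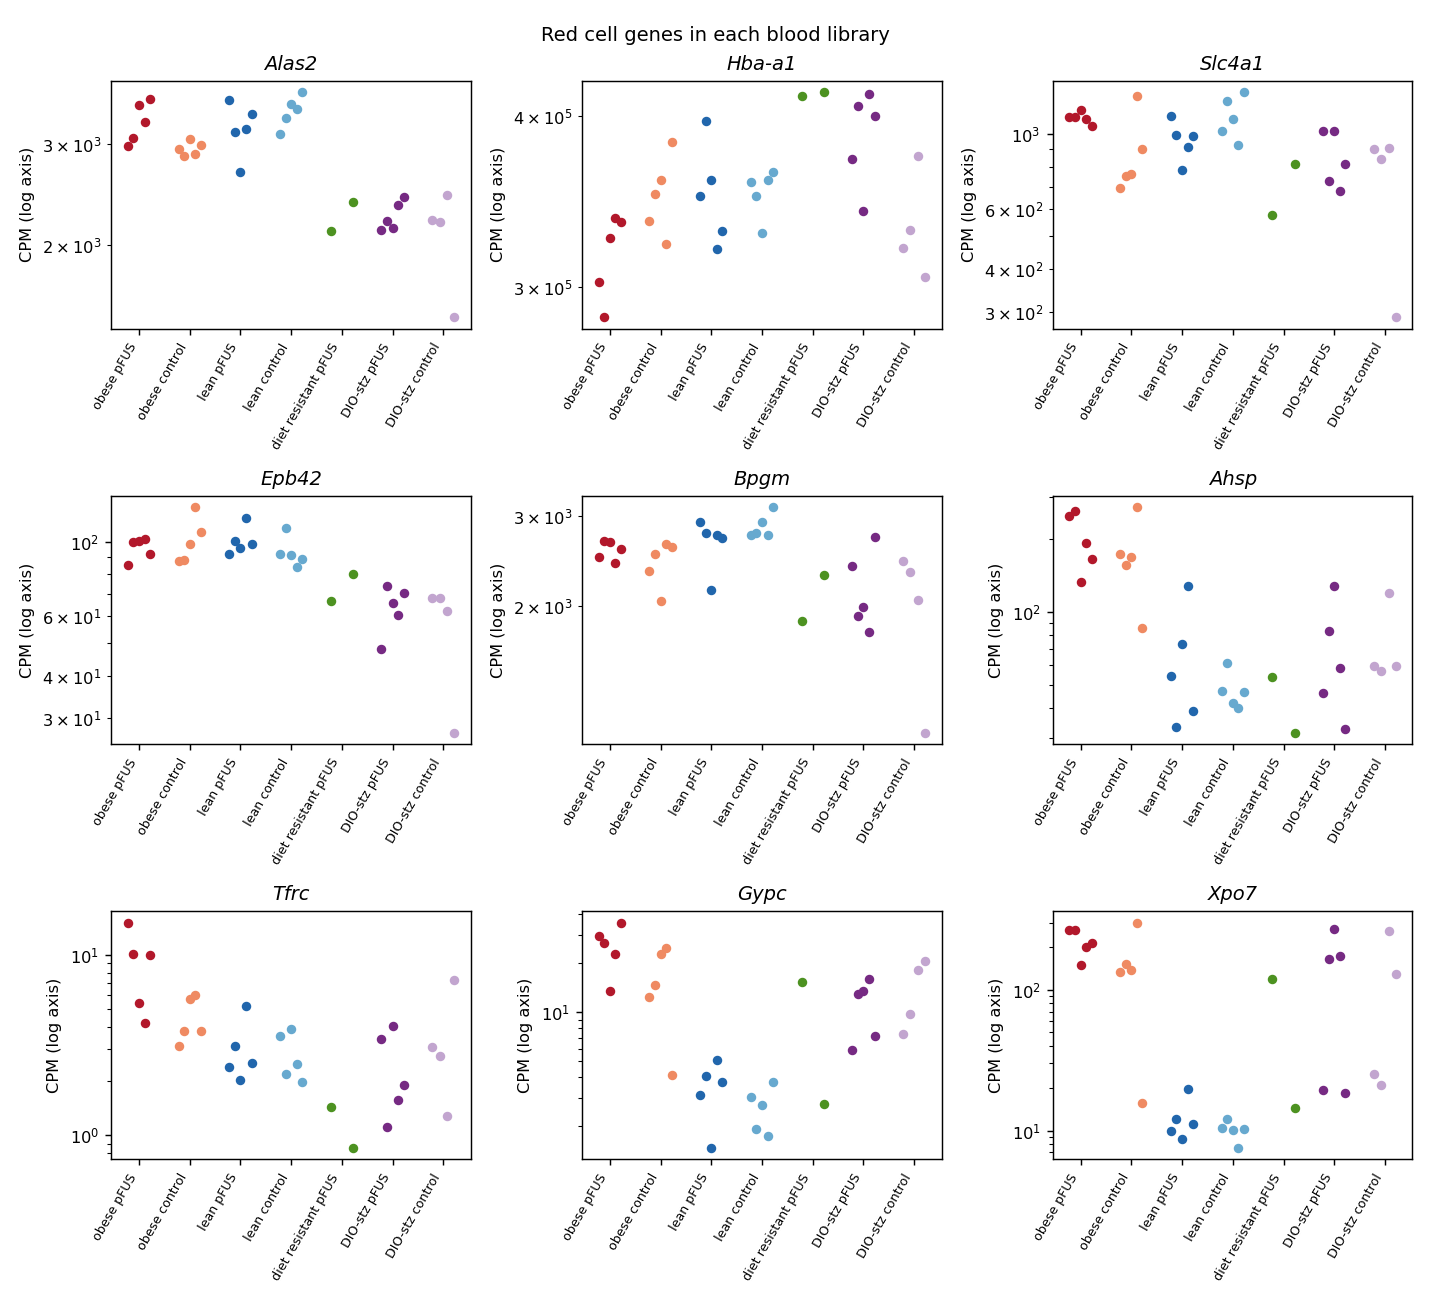
CPM of each red cell gene in every blood library (log axes that differ between panels), by group; each point is 1 rat. Xpo7 and Gypc lie higher in obese than in lean rats, with obese control 5 at 15.7 CPM for Xpo7, and are split within the DIO-stz and diet resistant groups.

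Ahsp and Tfrc, the other members tied to young red cells, had higher CPM in most obese libraries but did not pass between obese and lean blood. Ahsp was at 174, 157, 170, 272 and 85.9 CPM in obese controls 1 to 5, against 47.0, 61.2, 42.0, 40.0 and 46.6 CPM in lean controls 11 to 15. The ranges did not overlap, yet the fit gave a log2 fold change of 1.70 ± 0.50 (SE; n = 5 and 5; edgeR adjusted p = 0.0659), short of the threshold of 0.05. It passed without lean control 12 (2.25 ± 0.49, SE; n = 5 and 4; edgeR adjusted p = 0.0223), without obese control 5 (1.92 ± 0.50, SE; n = 4 and 5; edgeR adjusted p = 0.0268), and with DESeq2 (1.69 ± 0.49, SE; n = 5 and 5; adjusted p = 0.0185). Under pFUS, Ahsp was at 134 to 262 CPM in obese rats, against 33.4 to 129 CPM in lean rats, with a log2 fold change of 0.80 ± 0.49 (SE; n = 5 and 5; edgeR adjusted p = 0.448), and it passed without obese control 5, lean control 12 and lean pFUS 18 (edgeR adjusted p = 0.0492). With library totals alone in place of TMM, Ahsp passed in both comparisons, at 1.86 ± 0.32 in control rats and 1.61 ± 0.32 in pFUS rats (SE; n = 5 and 5; edgeR adjusted p = 0.00352 and 0.00401). Tfrc had little RNA in blood, 3.14 to 6.04 CPM in obese controls, against 1.97 to 3.88 CPM in lean controls. Under pFUS it was at 4.22 to 15.2 CPM in obese rats, against 2.03 to 5.22 CPM in lean rats. It did not pass in either comparison with TMM (log2 fold changes 0.80 ± 0.36 and 0.94 ± 0.35, SE; n = 5 and 5; edgeR adjusted p = 0.228 and 0.162), and passed with library totals alone under pFUS (1.56 ± 0.38, SE; n = 5 and 5; edgeR adjusted p = 0.0300).

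The remaining members, Hba-a1, Alas2, Slc4a1, Epb42 and Bpgm, did not pass between obese and lean blood in either set of rats. Alas2 was at 2863 to 3065 CPM in obese controls, against 3129 to 3699 CPM in lean controls, ranges that do not overlap (log2 fold change -0.29 ± 0.39, SE; n = 5 and 5; edgeR adjusted p = 0.738). Bpgm was at 2041 to 2641 CPM in obese controls, against 2753 to 3121 CPM in lean controls, again without overlap (-0.35 ± 0.36, SE; n = 5 and 5; edgeR adjusted p = 0.648). Under pFUS the ranges of both genes overlapped, with Alas2 at 2986 to 3601 CPM in obese rats and 2680 to 3582 CPM in lean rats. Slc4a1 averaged 881 ± 243 CPM in obese controls and 1124 ± 163 CPM in lean controls (SD, n = 5 each), and Epb42 101 ± 16.0 and 93.1 ± 9.76 CPM; for both genes the ranges of the groups overlapped. Over the 9 members the median log2 fold change was -0.03 in control rats and -0.38 in pFUS rats, against -0.02 and -0.03 over all genes tested.

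**Figure D2:**
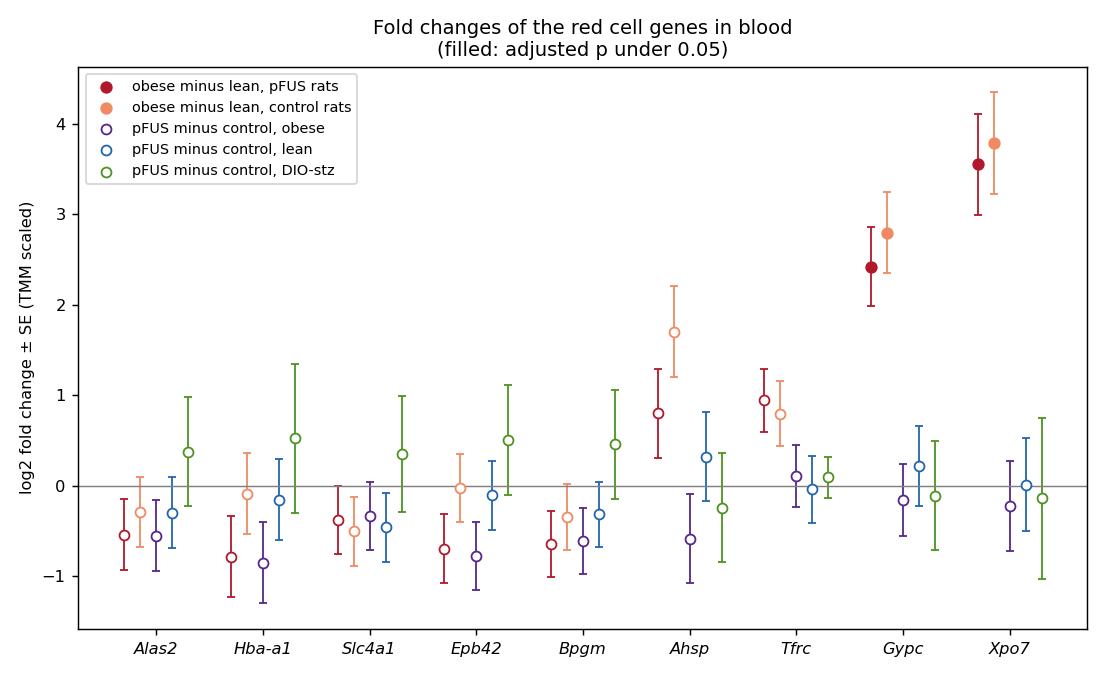
Log2 fold changes of the 9 genes in blood with their SE, after TMM scaling, for obese against lean and pFUS against control; filled points passed an adjusted p of 0.05. Xpo7 at 3.55 and 3.79 and Gypc at 2.42 and 2.79 are the filled points, and the pFUS comparisons are all open.

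Across all 31 blood libraries, Xpo7 did not vary evenly. It lay between 7.58 and 25.2 CPM in 16 libraries and between 119 and 300.3 CPM in 15, with none between. The higher libraries were obese controls 1 to 4, all 5 obese pFUS rats, DIO-stz controls 5 and 6, DIO-stz pFUS rats 8, 9 and 10 and diet resistant rat 1. The lower ones were obese control 5, all 10 lean rats, DIO-stz controls 3 and 4, DIO-stz pFUS rats 7 and 11 and diet resistant rat 2. Sex ran with the side in the DIO-stz rats: the 5 on the higher side were male, and the lower side held all 3 females and 1 male, DIO-stz pFUS rat 7. The ZDF and lean rats were all male and lay on both sides, and of the 2 diet resistant females 1 lay on each. The part of sex was not tested. Gypc split the same libraries, at 12.4 to 35.6 CPM in the 15 and 1.48 to 9.82 CPM in the 16, whereas Ahsp (53.7 to 272 against 31.6 to 129 CPM) and Tfrc (1.12 to 15.2 against 0.85 to 5.22 CPM) overlapped. The 2 sides were set by the values of Xpo7, so these ranges are a description without a test.

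The genes most like Xpo7 over the 31 blood libraries, chosen after its values were seen, were Tmcc2 (Pearson r of log2 levels 0.98), Tpx2 (0.97), Ppp1r15a (0.97), Slc6a9 (0.96) and Ifit1 (0.96), among 2783 genes at a mean of 5 CPM or more. The libraries share the split itself, so these values describe it. Ifit1, a gene that interferon induces, was at 37.5 to 284 CPM in the 15 libraries with high Xpo7 and at 0 to 9.42 CPM in the other 16. Ifit1 kept this order outside blood in the tissue where it was highest: its highest value in the other tissues of a rat, adipose aside, was at least 12.1 CPM in each of the 15 rats and at most 0.90 CPM in each of the 16. Lean rats had 2 to 4 such tissues, without kidney or pancreas, and the other rats 5 or 6. On each side the lowest value in any of these tissues was 0 CPM. The highest value of Xpo7 in those tissues did not keep the order. It was 139 CPM in obese control 2, whose blood was on the higher side, and 148 CPM in obese control 5, whose blood was on the lower. In liver, as given below, Xpo7 was higher in obese than in lean pFUS rats, and did not pass between obese and lean controls.

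**Figure D3:**
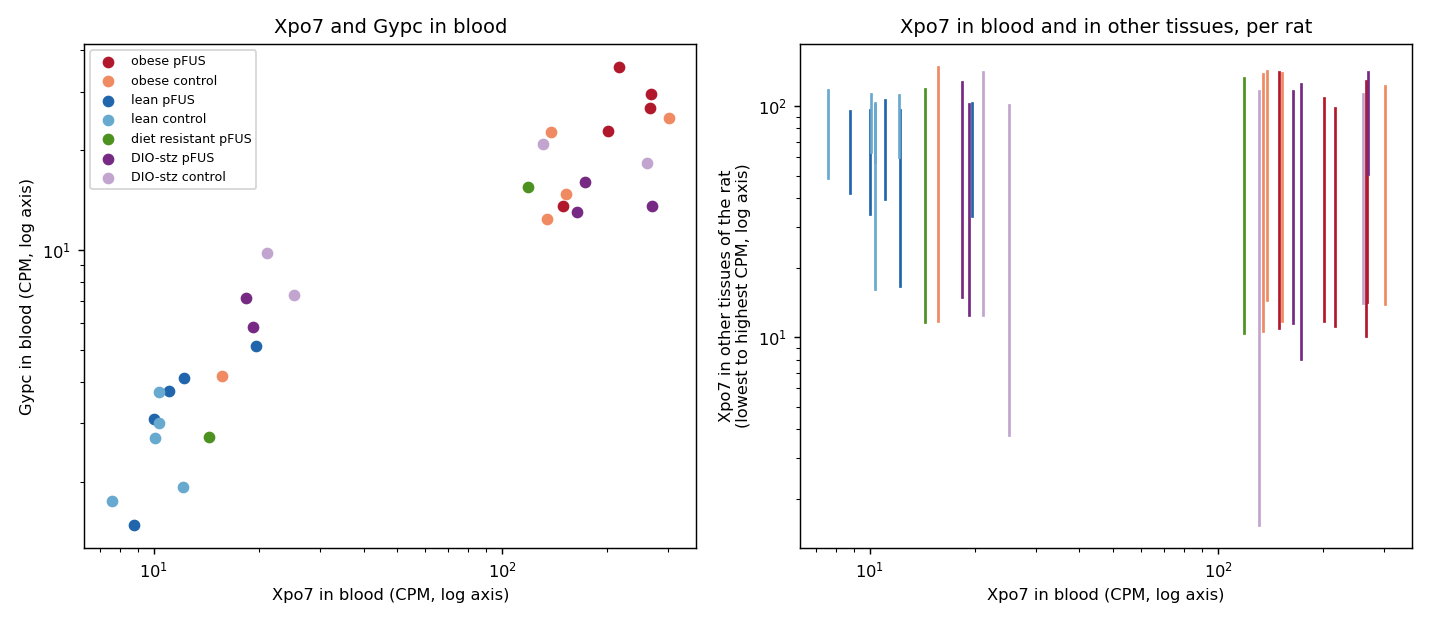
Left, Gypc against Xpo7 in each of 31 blood libraries (CPM, log axes); right, the lowest to highest Xpo7 of each rat's other tissues, adipose aside, against Xpo7 in its blood. Blood Xpo7 leaves a gap between 25.2 and 119 CPM. The bars of lean rats cover 2 to 4 tissues, without kidney or pancreas, and those of the other rats 5 or 6. The ends of the bars are therefore not comparable between the sides.

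By the rule used for the members as a group, the mean of standardised log2 levels of the 8 members at 5 CPM or more, the most similar genes in blood were Tfdp2 (Pearson r 0.84), Tk1 (0.81), Smox (0.81), Arhgef37 (0.80) and Abtb1 (0.76) over 31 libraries. Cd38 (-0.78), Exosc5 (-0.77) and Zfp36l1 (-0.77) ran most strongly against them. The members did not form 1 block. Gypc and Xpo7 followed each other (r = 0.94; 0.84 for deviations from group means), as did Ahsp and Xpo7 (0.78 and 0.74). Alas2 followed Epb42 (0.83), Bpgm (0.82) and Slc4a1 (0.73) but not Xpo7 (-0.26). All these values share library depth and the haemoglobin share of each library.

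No member passed between pFUS and control blood in any cohort. For pFUS against control, 0 of 9 members passed in obese, lean and DIO-stz blood with edgeR, 0 had an unadjusted p under 0.05 and 0 passed with DESeq2. Of all genes tested, 0% passed in obese blood (882 at an unadjusted p under 0.05, 2 with DESeq2), 0% in lean blood (265 and 1) and 0.0184% in DIO-stz blood (661 and 17). Xpo7 had log2 fold changes of -0.23 ± 0.50 in obese rats, 0.01 ± 0.51 in lean rats and -0.14 ± 0.89 in DIO-stz rats (SE; edgeR adjusted p = 0.892 in obese and 0.999 in DIO-stz rats), and its ranges in treated and control rats overlapped in each. The response to pFUS was also compared between obese and lean rats, where 0 of 9 members and 0% of genes passed (0 members with an unadjusted p under 0.05, 0 with DESeq2; 339 and 1 of all genes). In obese rats the direction of several members depended on the scaling: with library totals alone the log2 fold change was 0.16 for Alas2, 0.34 for Slc4a1, 0.57 for Xpo7 and 0.70 for Gypc, against -0.55, -0.34, -0.23 and -0.16 with TMM, and none passed either way.

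Haemoglobin as a whole was a smaller part of obese blood after pFUS. Haemoglobin genes took 82.8%, 83.7%, 87.5%, 87.5% and 87.3% of the counts in obese pFUS rats 6 to 10, against 89.9%, 89.8%, 90.4%, 87.6% and 87.6% in obese controls 1 to 5. The groups did not overlap, but their edges lay 87.5% against 87.6%. The means were 85.8% ± 2.33 and 89.1% ± 1.36 (SD, n = 5 each), a difference of -3.29 percentage points (exact two-sided permutation test, p = 0.00794, the smallest this design allows; 0.0397 after adjustment over 5 comparisons). The difference rested on the alpha genes, at -4.50 points, which did not pass alone (exact permutation test, adjusted p = 0.198), while the beta genes differed by 1.21 points the other way (exact permutation test, adjusted p = 0.843). Without obese pFUS 6 it was -2.54 points and no longer passed (exact permutation test, n = 4 and 5, adjusted p = 0.198), nor did it without obese pFUS 7 (-2.78 points) or without any 1 of the controls.

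White cell and platelet messages are set beside this, with ranges that overlapped for each list. The 8 monocyte markers, all detected in blood, summed to 987 to 2720 CPM in obese pFUS rats, against 487 to 1474 CPM in obese controls. The 15 lymphocyte markers in the file summed to 171 to 339 CPM in obese pFUS rats, against 75.3 to 223 CPM in obese controls. Neutrophil markers (13 of 13 detected) summed to 72.9 to 237 CPM in obese pFUS rats, against 54.8 to 152 CPM in obese controls, and platelet markers (12 of 12) to 129 to 293 CPM, against 44.4 to 254 CPM. Their part in the haemoglobin difference was not tested, and in bulk blood fewer cells of a type cannot be told apart from less RNA per cell. No single haemoglobin gene passed between obese pFUS and obese control blood: the 7 tested had log2 fold changes of -0.86 to -0.44 (edgeR adjusted p = 0.530 to 0.804; 1 with an unadjusted p under 0.05, 0 with DESeq2). Several alpha genes, and several beta genes, are near-identical copies, so the split of reads among them is uncertain and their sum is the firmer value.

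**Figure D4:**
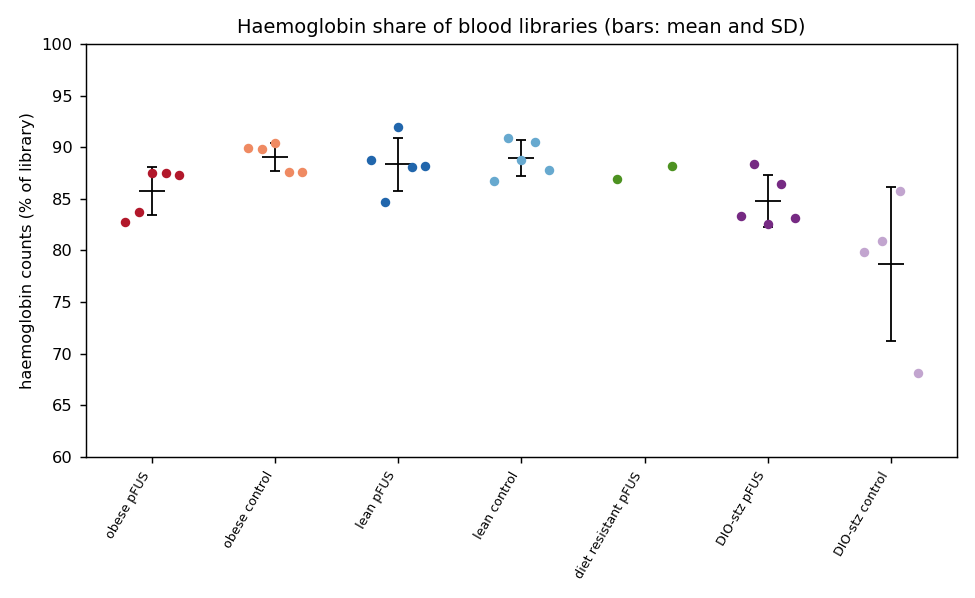
Haemoglobin counts as a percent of all counts in each blood library, by group, on an axis from 60 to 100; points are rats, bars the mean and SD of groups of 4 or 5. Obese pFUS rats lie at 82.8% to 87.5%, below obese controls at 87.6% to 90.4%, and DIO-stz control 6 is lowest at 68.2%.

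The haemoglobin share did not pass in the other comparisons. It averaged 89.1% ± 1.36 in obese controls and 88.9% ± 1.75 in lean controls (SD, n = 5 each; exact permutation test, adjusted p = 0.929). It averaged 85.8% ± 2.33 in obese pFUS rats and 88.3% ± 2.58 in lean pFUS rats (SD, n = 5 each; exact permutation test, adjusted p = 0.212). In lean blood it averaged 88.3% ± 2.58 with pFUS and 88.9% ± 1.75 without (SD, n = 5 each; exact permutation test, adjusted p = 0.843).

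In the DIO-stz rats the difference in haemoglobin share had the other sign and did not pass. It was 83.3%, 88.4%, 82.5%, 86.4% and 83.2% in pFUS rats 7 to 11, against 79.8%, 80.9%, 85.7% and 68.2% in controls 3 to 6. The ranges overlapped, and the difference of 6.11 points (exact permutation test, n = 5 and 4, p = 0.0794, adjusted p = 0.198) was 2.61 points without control 6, and 8.46 points without control 5, where it passed (exact permutation test, adjusted p = 0.0446). Control 6 was also the lowest of its group for Alas2 (1497 CPM), Slc4a1 (289 CPM), Bpgm (1125 CPM) and Epb42 (27.1 CPM), and its lymphocyte markers summed to 1305 CPM, against 177 to 396 CPM in the other 3 controls. Neutrophil markers summed to 87.8 to 248 CPM in DIO-stz pFUS rats, against 166 to 805 CPM in DIO-stz controls; their part was not tested.

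The wider red cell programme was read through 6 lists, of haem synthesis, membrane, metabolism, iron, reticulocyte maturation and erythroid transcription genes, with 81 genes in the file and 79 tested in ZDF and lean blood. Between obese and lean controls 2 rose, 0 fell and 77 did not pass, against 2.78% of all genes; the median log2 fold change of the lists was 0.03 and of all genes -0.02. The 2 were Hmox1, which breaks down haem (1.34 ± 0.34, SE; n = 5 and 5; edgeR adjusted p = 0.0337), and Ube2h, a ubiquitin-conjugating enzyme of late erythroid cells (1.04 ± 0.27, SE; n = 5 and 5; edgeR adjusted p = 0.0385). Each call was lost without any 1 of the same 7 libraries, obese controls 2, 3 and 4 and lean controls 11, 13, 14 and 15 (edgeR adjusted p = 0.0600 to 0.105 for Hmox1 and 0.0709 to 0.117 for Ube2h). Without obese control 5, lean control 12 and lean pFUS 18, 26 of the list genes passed, while the count over all genes rose likewise, from 261 to 1143.

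Between obese and lean pFUS rats 6 of the 79 rose, 0 fell and 73 did not pass, against 2.93% of all genes. Haem synthesis gave Uros (2.21 ± 0.51, SE; edgeR adjusted p = 0.0257) and Ppox (1.67 ± 0.41, SE; edgeR adjusted p = 0.0311), enzymes of its middle and late steps, of 14 genes tested. The iron list gave Hmox1 (1.25 ± 0.31) and Aco1 (0.98 ± 0.22), the cytosolic aconitase that doubles as an iron sensor, of 8. Reticulocyte maturation gave Ulk1 (0.78 ± 0.16), a kinase that starts autophagy, of 18. Erythroid transcription gave Lmo2 (0.96 ± 0.21), a partner of the GATA factors, of 13. Leaving out 1 library at a time, of 10, ended the call of Hmox1 7 times, of Ppox 6 times, of Uros 5 times and of Aco1 and Lmo2 2 times each (edgeR adjusted p = 0.0526 to 0.105 over these). Ulk1 passed without each of the 10. The membrane list (16 tested) and the metabolism list (10 tested) had no gene that passed in either comparison. With pFUS against control, 0 of 79 list genes passed in obese blood (7 with an unadjusted p under 0.05, 0 with DESeq2), 0 of 79 in lean blood (0 and 0) and 0 of 80 in DIO-stz blood (2 and 0).

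Some white cell messages also differed between obese and lean blood, those of monocytes above all. Refits without 1 library are not given for these markers. Of 7 monocyte markers tested, 5 rose and 0 fell between obese and lean controls, where 2.06% of all genes rose. Among the 5 were Lyz2 (1.08 ± 0.30, SE, edgeR adjusted p = 0.0476), Csf1r (1.07 ± 0.29) and Adgre1 (1.20 ± 0.27). Under pFUS, where 1.91% of all genes rose, 2 of the markers did, Csf1r (1.19 ± 0.29) and Cd14 (1.13 ± 0.27). The 8 monocyte markers summed to 487 to 1474 CPM in obese controls, against 189 to 840 CPM in lean controls, and to 987 to 2720 CPM in obese pFUS rats, against 144 to 1284 CPM in lean pFUS rats. The lymphocyte marker Fcrla fell in both comparisons (-0.84 ± 0.21 in controls and -0.87 ± 0.20 under pFUS, SE). Cd8a fell under pFUS, where 2 of 15 lymphocyte markers fell and 0 rose. Of 9400 genes, 67 fell in controls and 95 under pFUS. By CPM these 2 markers also averaged lower in obese rats, with overlapping ranges. The summed lymphocyte markers averaged 143 CPM in obese and 193 CPM in lean controls. Under pFUS the order turned, at 244 ± 83.2 CPM in obese and 221 ± 98.4 CPM in lean rats (SD, n = 5 each). The neutrophil markers Lcn2 and Camp rose between obese and lean controls, of 10 tested, both at very low levels. Lcn2 was at 0.40 to 1.39 CPM in obese controls, against 0 to 0.027 CPM in lean controls. Camp was at 0.46 to 2.47 CPM in obese controls, against 0.17 to 0.68 CPM in lean controls, with overlapping ranges. The other 8 did not pass, and under pFUS 0 of the 10 passed. No platelet marker of 11 passed in either comparison. Cd14, Fcrla, Cd8a, Lcn2 and Camp are named here after their values were seen. The part of these cells in the differences of Xpo7 and Gypc was not tested.

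Outside blood, haemoglobin gives a measure of the blood left in a tissue. Of the 48 libraries labelled adipose, 5 did not have the messages of fat: in obese pFUS 6, lean control 12 and lean pFUS 17, 18 and 19, the muscle creatine kinase Ckm was at 16510 to 21792 CPM, inside the range of the libraries labelled muscle, and the fat hormone Adipoq at 0.16 to 15.6 CPM. In the other 43, Ckm was at most 2580 CPM, in obese pFUS 9, and Adipoq at 516 CPM or more. These 43 still held messages of other tissues. Lean control 11 and lean pFUS 16 had 474 and 172 CPM of Umod, a gene of the kidney tubule, and 516 and 775 CPM of Adipoq. Their haemoglobin shares were 1.06% and 1.19%. Adipose values are given with the 5 libraries at muscle Ckm and, by a choice made after the data were seen, without them. The median haemoglobin share of counts was 0.488% in adipose (n = 48), 0.178% in kidney (n = 21), 0.0722% in brain (n = 31), 0.0619% in liver (n = 55), 0.0493% in muscle (n = 52), 0.0185% in intestine (n = 29) and 0.0102% in pancreas (n = 20), against 87.5% in blood. Without the 5 libraries at muscle Ckm, the adipose median was 0.500% (0.106% to 1.33%, n = 43), while those 5 held 0.0146% to 0.0332%. The ranges of neighbours in this order, all adipose libraries included, overlap throughout outside blood. Per the labels adipose and pancreas were made with a total RNA kit and the other tissues with a kit for poly(A) RNA, but the RNA without a tail did not keep to this. Rn7sl1, such an RNA, chosen after its values were seen, was at 3460 CPM or more in all 20 pancreas libraries, 40 adipose, 32 muscle and 24 liver libraries, and at most 80.2 CPM in every other library, among them the 8 adipose libraries of the DIO-stz and diet resistant rats. The part of this difference in the haemoglobin shares was not tested. Set against the blood of the same rat, the share amounted to a median of 0.307% of the blood level in adipose (24 rats; 0.670% in 19 without the libraries at muscle Ckm), 0.222% in kidney (21), 0.103% in liver (31), 0.0855% in brain (31), 0.0550% in muscle (28), 0.0231% in intestine (29) and 0.0122% in pancreas (20).

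Alas2 followed that share, on the median, in all 7 tissues, with a wide spread where both were low. Multiplying a rat's blood Alas2 by its tissue's fraction of blood haemoglobin gave the Alas2 expected from carried blood alone, and the observed level was a median of 0.95 times it in adipose (0.96 without the libraries at muscle Ckm), 1.00 in kidney, 1.08 in brain, 1.08 in liver, 0.91 in muscle, 0.96 in intestine and 1.31 in pancreas. Single rats ran from 0.41 to 1.29 times in adipose, 0.69 to 1.57 in kidney, 0.53 to 2.01 in brain, 0.44 to 1.62 in liver, 0.38 to 1.62 in muscle, 0 to 3.20 in intestine and 0 to 2.52 in pancreas. Across libraries the Pearson r of log2 Alas2 with log2 haemoglobin was 0.96 in adipose (0.92 without the libraries at muscle Ckm), 0.96 in liver, 0.94 in kidney, 0.91 in brain, 0.88 in muscle, 0.87 in intestine and 0.71 in pancreas. These libraries share depth and the haemoglobin counts themselves. Alas2 was at 1497 CPM or more in every blood library and at most 49.8 CPM in any other.

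**Figure D5:**
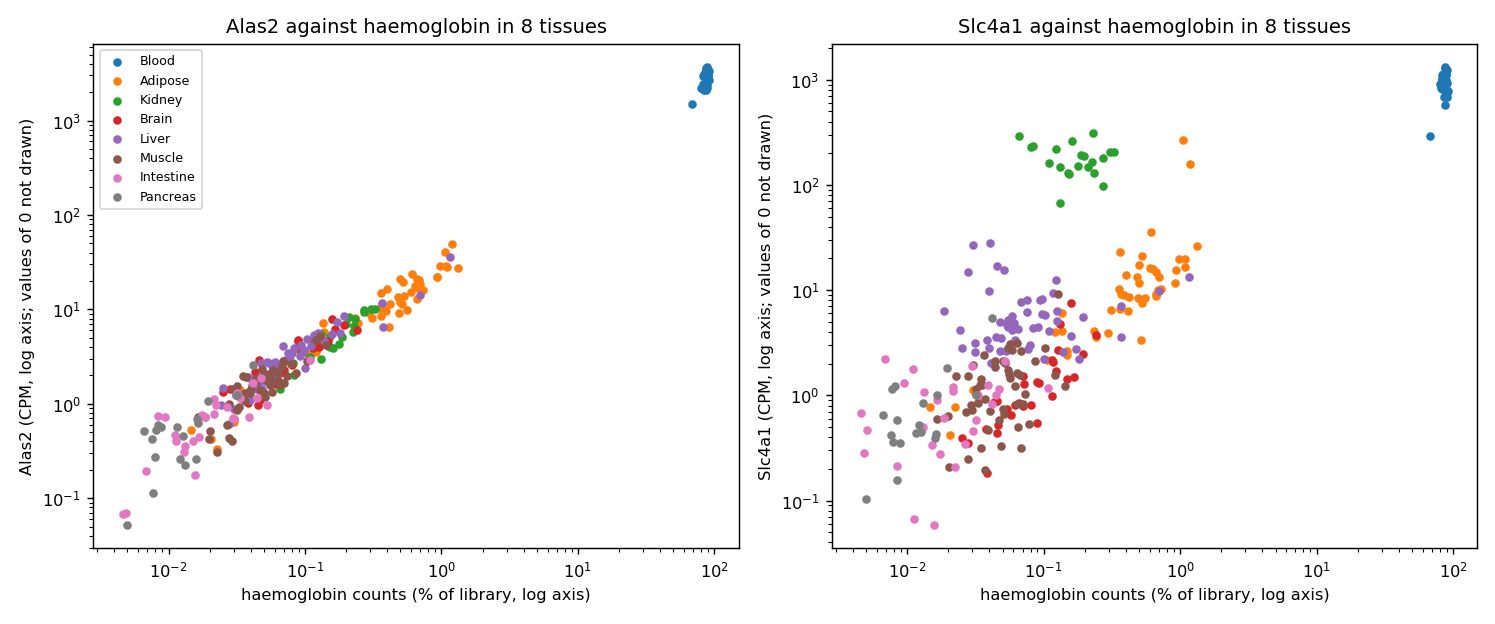
Alas2 (left) and Slc4a1 (right) in CPM against haemoglobin as a percent of counts in every library of 8 tissues, on log axes; libraries with a value of 0 are not drawn. Alas2 lies near 1 line, with more scatter at its low end, while kidney libraries, at 66.7 to 314 CPM of Slc4a1, and 2 adipose libraries lie above the rest.

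Epb42 and Ahsp were also found almost only in blood, at medians of 89.0 and 61.2 CPM there and at most 3.22 and 4.59 CPM in any other library. The remaining members have levels of their own in solid tissues. Bpgm was highest in blood (median 2527 CPM), then muscle (163 CPM) and brain (85.9 CPM), whose ranges overlap; in muscle the observed level was a median of 157 times that expected from carried blood. Xpo7 was at medians of 113 CPM in brain, 109 in adipose, 99.1 in muscle, 68.3 in kidney, 62.7 in liver, 59.4 in intestine, 25.2 in blood and 11.7 in pancreas, each range overlapping the next. Gypc was highest in muscle (49.8 CPM) and Tfrc in intestine (188 CPM), where Tfrc in blood, at 3.14 CPM, was the lowest of 8 tissues.

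Slc4a1 departed from the haemoglobin line in kidney, where acid-secreting cells of the collecting duct are known to use a shorter form of the exchanger. Kidney held 66.7 to 314 CPM (median 180) of Slc4a1, a median of 79.1 times the level expected from carried blood, with r = -0.19 to haemoglobin over 21 libraries. The transcripts differed as well. ENSRNOT00000028445 took a median of 99.3% of Slc4a1 counts in blood (98.8% to 99.7%) and 6.86% in kidney, and ENSRNOT00000092102 took 0.72% in blood and 93.1% in kidney (84.5% to 98.0%). The ranges do not overlap. The second transcript also made up 73.1% of Slc4a1 in the adipose library of lean control 11 and 56.3% in that of lean pFUS 16, at 270 and 160 CPM of Slc4a1, and at most 18.5% in the other 46. Those 2 adipose libraries held 474 and 172 CPM of Umod, a gene of the kidney tubule chosen after its values were seen, against at most 12.7 CPM in the rest. The other members had 1 transcript in the file or, for Xpo7 and Bpgm, 1 that took a median of 99.8% and 100% of the counts in blood.

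In liver, Hba-a1 was lower in obese than in lean rats, in control and in pFUS rats; it was the 1 member of 9 that passed as lower in controls, and 3 did so under pFUS. Hba-a1 was at 116 to 344 CPM in obese controls, against 426 to 3754 CPM in lean controls, without overlap (log2 fold change -2.44 ± 0.68, SE; n = 5 and 5; edgeR adjusted p = 0.0206). The haemoglobin share was 0.0544%, 0.0315%, 0.0836%, 0.103% and 0.0975% in obese controls 1 to 5, against 0.173%, 0.193%, 0.110%, 0.138% and 0.698% in lean controls 11 to 15. Without lean control 15, the highest of its group, Hba-a1 no longer passed (-1.04, edgeR adjusted p = 0.165), nor did it without obese control 2 (-2.28, edgeR adjusted p = 0.0578) or with only these groups in the fit (-2.45, edgeR adjusted p = 0.0560). Slc4a1, Epb42 and Ahsp did not pass, and without lean control 15 their log2 fold changes were 0.47, 0.90 and 0.32. Under pFUS Hba-a1 was at 180 to 480 CPM in obese livers, against 693 to 4458 CPM in lean livers (-2.91 ± 0.69, SE; n = 5 and 5; edgeR adjusted p = 0.00553), Alas2 fell likewise (-2.23 ± 0.57; edgeR adjusted p = 0.00794), and so did Bpgm (-1.15 ± 0.30; edgeR adjusted p = 0.00928). Lean pFUS 17 held most haemoglobin of its group, at 1.15%, and without it Alas2 did not pass (-1.27, edgeR adjusted p = 0.0538), while Hba-a1 was at -2.07 and Bpgm at -0.60 (edgeR adjusted p = 0.0273 and 0.0375). Gypc rose in obese control livers, 24.6 to 31.1 CPM against 13.2 to 23.7 CPM in lean controls (0.65 ± 0.17, SE; edgeR adjusted p = 0.0125), and Xpo7 in obese pFUS livers, 53.5 to 68.2 against 16.7 to 41.9 CPM in lean pFUS rats (0.59 ± 0.22, SE; edgeR adjusted p = 0.0497); the Xpo7 call was lost without any 1 of 9 of the 10 libraries, obese pFUS 7 being the exception (edgeR adjusted p = 0.0531 to 0.138). Over the 5 tissues tested outside blood, 6 of 38 member and tissue pairs passed between obese and lean controls and 6 of 38 under pFUS, all in liver and muscle, against 12% and 13.2% of all gene and tissue pairs. With adipose left out, the 6 and 6 were of 30 pairs each, against 15% and 16.5% of all pairs. In liver, 2 of 9 members passed in controls and 4 of 9 under pFUS, against 13% and 28.6% of 12585 genes.

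In muscle the direction was the other one. Alas2 was at 1.29 to 4.21 CPM in obese controls, against 0.41 to 1.26 CPM in lean controls, without overlap (log2 fold change 1.84 ± 0.55, SE; n = 5 and 4; edgeR adjusted p = 0.00992). Hba-a1 rose (1.53 ± 0.56; edgeR adjusted p = 0.0286), with overlapping ranges, and did not pass without obese control 4, whose haemoglobin share of 0.143% was the highest (0.74, edgeR adjusted p = 0.171), nor without lean control 11, 13 or 14 (1.47 to 1.58, edgeR adjusted p = 0.0538 to 0.0668), nor with no filter on low counts (1.45, edgeR adjusted p = 0.0601). Bpgm and Gypc rose in both sets of rats, Bpgm by 0.70 ± 0.18 in controls and 0.82 ± 0.18 under pFUS, and Gypc by 1.01 ± 0.17 and 0.82 ± 0.17 (SE; edgeR adjusted p = 0.00384, 0.00179, 1.04e-04 and 9.91e-04). The background was large, at 51.9% and 39.9% of 12577 genes, against 4 and 2 of 7 members. The muscle libraries also differed in kind: Rn7sl1, the RNA without a tail, was at 2.26 to 18.0 CPM in obese muscle of both treatments, against 14131 to 32902 CPM in lean muscle. This difference and that between obese and lean rats cannot be told apart in the muscle of the 7-week rats.

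With pFUS against control, the members passed in 1 tissue outside blood. Slc4a1 in liver of DIO-stz rats was at 2.23, 4.50, 2.04, 4.21 and 9.85 CPM in pFUS rats 7 to 11, against 26.9, 27.8, 15.4 and 14.8 CPM in controls 3 to 6. The groups did not overlap (log2 fold change -1.83 ± 0.36 with sex in the fit, SE; n = 5 and 4; edgeR adjusted p = 0.0431; 1% of 12870 genes passed). The call was lost without any 1 of the 9 libraries, at adjusted p = 0.0662 to 0.165, while the log2 fold change stayed between -2.17 and -1.65. Haemoglobin and Alas2 did not follow it: its share of liver counts was 0.0243% to 0.0997% in pFUS rats, against 0.0278% to 0.0509% in controls, and Alas2 was at 0.98 to 3.19 CPM in pFUS rats, against 0.62 to 1.79 CPM in controls. Over all 7 tissues it was 1 of 52 member and tissue pairs in DIO-stz rats, against 0.279% of all pairs (6 members' pairs had an unadjusted p under 0.05; 2 passed with DESeq2). In obese rats 0 of 51 pairs passed with edgeR, against 0.0874% of all pairs (2 with an unadjusted p under 0.05; 1 with DESeq2, Xpo7 in intestine at -0.34). In lean rats 0 of 38 passed with edgeR, against 0.0117% of all pairs (4 with an unadjusted p under 0.05; 1 with DESeq2, Tfrc in liver at -0.98). Without the liver library of lean control 15, 5 passed, all in liver. Alas2 (1.48), Hba-a1 (2.05) and Bpgm (0.88) were then higher with pFUS, and Tfrc (-1.26) and Xpo7 (-0.51) lower. That refit kept lean pFUS 17, whose liver haemoglobin share was 1.15%. Without lean pFUS 17 instead, Alas2 was at 0.03 and Hba-a1 at -0.19, and no member passed in liver. The share of all genes passing in these refits is not given here. In the obese rats treated for 3 days, 0 of 23 passed with edgeR on the x1 schedule and 0 of 23 on the x10 schedule, against 0.433% and 0.83% of all pairs (1 each with an unadjusted p under 0.05; 0 with DESeq2).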

How the data were processed

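The authors deposited expected counts per gene and per transcript (RSEM) for 287 libraries in 8 tissues; per the submitters' processing notes the tools were STAR 2.5.3a and RSEM on Rnor_6.0. The values are whole numbers, used as deposited, with stranded kits per the labels' protocols. Libraries held 2380545 to 43088790 counts; SE and p-values cover the spread between libraries. Samples were grouped by the labels and fitted per tissue and cohort with edgeR 4.0.16 (R 4.3.3; TMM; filterByExpr, minimum count 10; quasi-likelihood F test; Benjamini-Hochberg adjustment over all genes tested, threshold 0.05), with sex as a term in the DIO cohort; each SE was obtained by dividing the size of the log2 fold change by the root of F. The fit was tested on simulated data. For pFUS against control it recovered 49%, 57% and 33% of 2-fold changes in obese, lean and DIO-stz blood, and 96%, 93% and 72% of 4-fold changes. In adipose of obese and lean 7-week rats it recovered 1% of 2-fold changes, and 28% and 23% of 4-fold changes. A gene that did not pass may therefore still have changed. Haemoglobin shares (10 of 21 listed symbols in the file) were compared by exact two-sided permutation, adjusted over 5 comparisons. Correlations use log2(CPM + 1). DESeq2 1.42.0 and other settings were alternatives. The members, lists and rules for named genes were chosen with earlier results of these data known. Named genes were the members, haemoglobin genes, at most 4 passing genes per red cell list, and the genes most and least like the members. The count of lymphocyte marker calls between obese and lean controls is not reported here. The 4-week groups have no control of that duration; in the tests they entered only the fit's spread, and they are counted in the levels and correlations by tissue.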

Additional observations from a re-analysis of the deposited data

Results flagged for a closer look

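Within groups of 4 to 10 libraries, each member's CPM in blood and the haemoglobin share in each tissue were checked for a library far from its group, 114 checks in all. Chance flags about 1 in 20 groups, and 9 were found. In blood, DIO-stz control 6 was far below its group for Slc4a1, at 289 CPM against 842 to 909 CPM, and for Epb42, at 27.1 CPM against 62.2 to 67.9 CPM. DIO-stz control 5 was far above for Ahsp, at 119 CPM against 56.9 to 59.8 CPM, and lean pFUS 18 far below for Bpgm, at 2148 CPM against 2720 to 2916 CPM. Outside blood, the haemoglobin share was 1.19% in adipose of lean pFUS 16, against 0.0146% to 0.0332% in the others of its group. Those others, lean pFUS 17, 18 and 19, are libraries labelled adipose with Ckm at the level of muscle, so they are no measure of fat. Lean pFUS 16 itself held 172 CPM of the kidney tubule gene Umod. The haemoglobin share was 0.698% in liver of lean control 15, against 0.110% to 0.193%, and 1.15% in liver of lean pFUS 17, against 0.158% to 0.371%. It was 0.0860% in muscle of rat 22 of the obese 4-week AM and PM x1 pFUS group, against 0.0516% to 0.0568%. It was 0.0418% in pancreas of obese pFUS 6, against 0.00665% to 0.0115%.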

How the results depend on the processing

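No paired analysis was possible because the control and pFUS rats, and the obese and lean rats, are different animals whose groups share no replicate numbers. Of 75 gene and comparison pairs, 59 kept their side of the threshold under every alternative. No pair that passed under any of them changed sign (0 reversed), while 33 that passed under none took both signs. Between obese and lean controls in blood, genes passing numbered 261, against 551 with DESeq2, 43 with library totals alone, 630 without lean control 12 and lean pFUS 18, 1143 also without obese control 5, and 13 (without lean control 15) to 550 (without obese control 5) leaving out 1 library; red cell list genes numbered 2, against 11 with DESeq2, 1 with only the groups compared, 15 and 26 without those libraries, and 0 to 13 leaving out 1; members ran from 2 to 3. Under pFUS, 275 genes passed, against 500 with DESeq2, 111 with library totals, 173 with only the groups compared and 74 (without lean pFUS 20) to 641 (without lean pFUS 19) leaving out 1 library; list genes numbered 6, against 10, 14, 11, 13 without the 3 libraries, and 1 to 8; members numbered 4 with library totals. For pFUS in obese blood, DESeq2 gave 2 genes, and 1 and 5 passed without those libraries; in lean blood and for the obese minus lean response DESeq2 gave 1 each. In DIO-stz blood 2 genes passed, against 17 with DESeq2, 18 with library totals, 4 with no filter, 4 with no sex term, 0 with only the groups compared, 0 in males and 0 to 5 leaving out 1. Outside blood, members passing for pFUS numbered 1 with DESeq2 in obese rats; 1 with DESeq2, 5 without the liver of lean control 15 and obese pFUS 7 and 0 to 5 leaving out 1 in lean rats; and 2 with DESeq2, 2 with no filter and 0 to 1 in DIO-stz rats; for obese against lean they ran from 5 to 7 in controls (7 with DESeq2, 5 to 6 leaving out 1) and 4 to 8 under pFUS (8 with only the groups compared, 4 to 7 leaving out 1). Leaving out adipose changed none of these counts of members. The haemoglobin difference in obese blood was -4.50 points with alpha genes, 1.21 with beta genes, and -3.73 to -2.54 leaving out 1 library; in DIO-stz blood it was 2.61 to 8.46, in lean blood -1.50 to 0.32, for obese against lean -0.42 to 0.61 in controls and -3.49 to -1.68 under pFUS. The causes were not tested. Library totals alone, leaving out adipose and the sets of 2 and 3 libraries that include obese control 5 or liver were chosen after seeing the data.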
